A study of Mus musculus with 4 samples.

Results

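The glycolytic enzymes Hk1, Hk2, Gpi1, Pfkl, Pfkp, Aldoa, Pgk1, Pgam1, Eno1 and Ldha were followed in mouse embryonic stem cells depleted of Chd4. Members were all probe sets that the annotation of the array platform gives to only 1 of these 10 genes. That rule found 19 probe sets of 8 genes among the 45037 non-control probe sets and 18193 genes on the array. They were 2 for Hk1, 1 for Hk2, 3 for Pfkl, 3 for Pfkp, 5 for Aldoa, 3 for Pgk1, 1 for Pgam1 and 1 for Ldha. The annotation listed no probe set under Gpi1 or Eno1, so these 2 were not analysed here. RNA was taken from the J1 line carrying an inducible RNAi construct against Chd4 (line Chd4i-1), grown on gelatin with serum and leukaemia inhibitory factor. The Chd4 RNAi group (n = 2 arrays) had been given 5 ng/ml doxycycline for 3 days. The control group (n = 2 arrays) was the same line without doxycycline, so the drug and the loss of Chd4 cannot be told apart. The submitters describe each pair of arrays as biological duplicates, and a single RNAi line was used.

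Glycolysis converts glucose to pyruvate in the cytosol, with a net yield of ATP and NADH. Hexokinases trap glucose as glucose 6-phosphate, phosphofructokinase makes the committed step, aldolase splits the sugar, the lower enzymes recover the ATP, and lactate dehydrogenase turns pyruvate into lactate. Mouse embryonic stem cells run this pathway at a high rate even with oxygen present. Chd4 is the chromatin remodelling ATPase of NuRD, a complex that also deacetylates histones and binds promoters and enhancers.

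The 4 arrays shared 1 scale, and none stood apart. The trimmed mean signal lay between 496.5 and 497.2, and Pearson's r across the genes tested was 0.985 in the Chd4 RNAi pair, 0.986 in the control pair and 0.968 to 0.969 between groups. Chd4 itself was lower at 3 of 3 probe sets, at 48.5%, 56.1% and 65.0% of control. Of the 10 markers of embryonic stem cells, 0 had a mean signal under the median of all probe sets (71.8), and 2 were called higher and 2 lower. Their summed signal was 121078 and 118474 in the Chd4 RNAi arrays, against 118804 and 121822 in the controls. Among 6 trophectoderm markers 3 were tested and 2 called higher. The 6 summed to 3430 and 3599.5 in the Chd4 RNAi arrays, against 1497 and 1458 in the controls, with Cdx2, Elf5 and Gata3 under the median signal. For 8 fibroblast markers (3 tested, 1 called higher) the sums were 894 and 794 with Chd4 RNAi, against 479 and 563 in the controls. Of the 8, 6 were under the median signal. Mesoderm and muscle markers (3 tested, 1 called higher) summed to 714 and 696 against 582 and 356. Neural markers (5 tested, 1 higher, 1 lower) gave 2141 and 2266 against 2231 and 2231. Primitive endoderm markers (4 tested, 0 called) gave 409 and 355 against 354 and 329. Of all genes tested, 11.7% were called higher and 8.81% lower. No signal on these arrays was 0, so a signal above 0 does not show that a marker is expressed. Whether cells of these other types were present, and their part in the results on glycolytic enzymes, was not tested.

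Of the 8 enzymes measured, 3 were called higher and 1 lower after Chd4 depletion. Pfkp, the platelet-type phosphofructokinase, rose to 136% of control and the hexokinase Hk1 to 122%, whereas the hexokinase Hk2 fell to 81.0%. Ldha, the lactate dehydrogenase subunit typical of glycolytic cells, rose to 115%. The test was limma on log2 signal with 1 probe set a gene, the brightest, adjusted by Benjamini-Hochberg over 12615 genes at a threshold of 0.05. It called 4 of the 8 genes (20.5% of all genes tested), 3 higher (11.7% of all) and 1 lower (8.81% of all). At 7 of the 8 the groups did not overlap, as at 60.6% of all genes tested. Aldoa, Pgk1, Pgam1 and Pfkl did not pass. The calls of Hk1 and Ldha were less firm. With the arrays centred on their medians only Pfkp and Hk2 were called, 2 of the 8 (17.6% of all genes), and the 2 Hk1 probe sets went opposite ways. In a sample of whole cells, fewer cells of a type and less RNA per cell cannot be told apart.

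Over the 19 probe sets, 6 were called in limma, 5 higher and 1 lower. Of the 27022 probe sets over which p was adjusted, 14.2% were called, 7.46% higher and 6.77% lower. At an unadjusted p under 0.05 there were 12 of the 19, against 28.3% of all. All 19 lay above the filter on dim probe sets, the dimmest at percentile 64.7 of signal. Both Chd4 RNAi arrays lay above both controls at 12 of them (27.5% of all probe sets tested did) and below at 1 (28.4% did). The groups thus did not overlap at 13 of 19, against 55.9% of all, and overlapped at the other 6. The median difference of the 19 was 0.15 on the log2 scale, against -0.012 for all probe sets tested. At 12 of the 19 the difference between groups was larger than the gap within either pair of replicates, as at 43.9% of all probe sets tested. Both Chd4 RNAi arrays shared the shift: the median of the 8 genes stood 0.18 and 0.10 (log2) above the control mean, with 7 of 8 genes above it in each array.

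**Figure D1:**
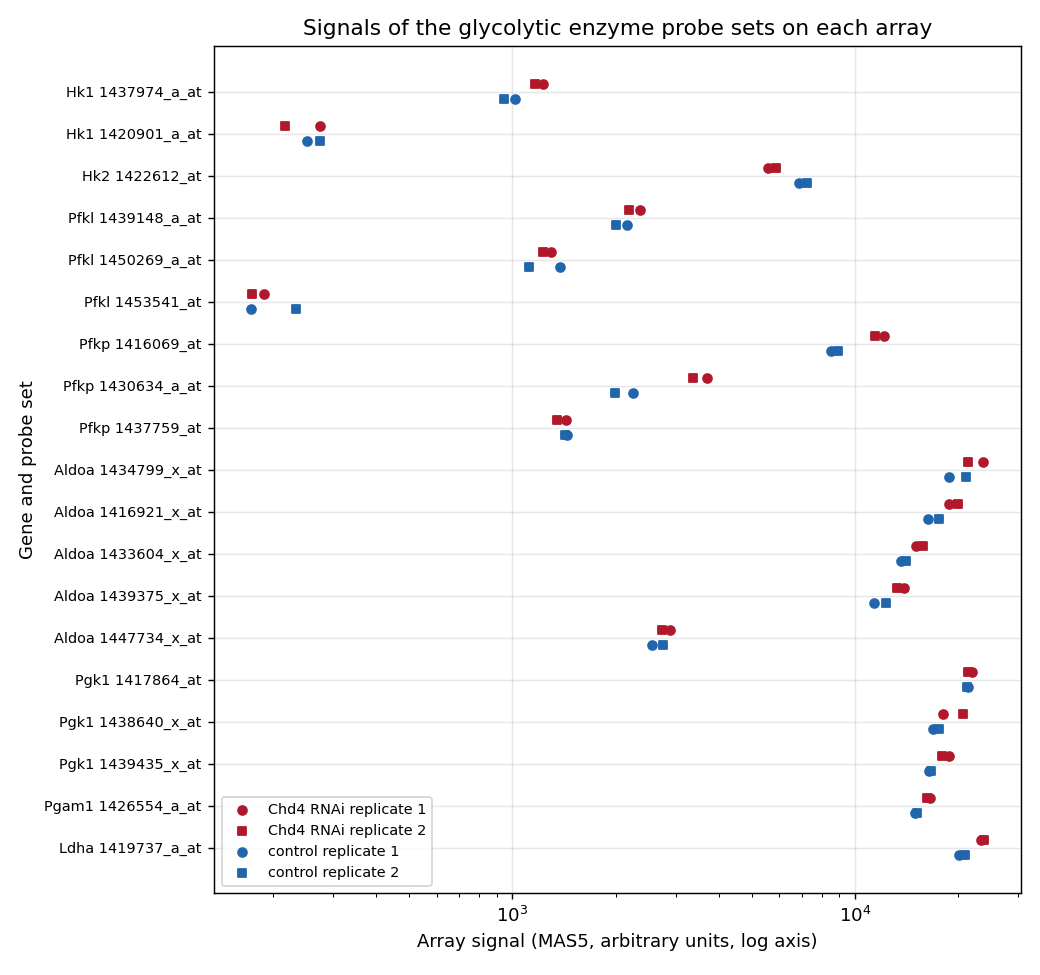
Signal of each of the 19 glycolytic enzyme probe sets on each array (horizontal log axis, arbitrary units), 2 Chd4 RNAi arrays in red and 2 control arrays in blue. Pfkp 1416069_at and 1430634_a_at lie clear of the controls on the high side and Hk2 on the low side, whereas the points of Hk1 1420901_a_at and of Pfkl 1450269_a_at and 1453541_at interleave.

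The first step is shared by 2 hexokinases, Hk1, which is found in most tissues, and Hk2, the form linked with high glycolytic flux. The Hk2 signal (probe set 1422612_at) was 5584 and 5867 in the Chd4 RNAi arrays, against 6866 and 7268 in the controls. Both Chd4 RNAi arrays lay below both controls. The log2 difference was -0.30 ± 0.056 (SE, n = 2 each), with an adjusted p of 0.00346 among genes in limma. Only 4.96% of the probe sets of similar brightness (percentiles 95 to 98) had a lower difference. Hk1 was measured by 2 probe sets, which did not go the same way. At 1437974_a_at, the brighter, the signal was 1224 and 1166 in the Chd4 RNAi arrays, against 1014 and 943 in the controls, with no overlap. Its log2 difference of 0.29 ± 0.088 (SE, n = 2 each) had an adjusted p of 0.0392 in limma's gene fit and 0.0550 in the probe-set fit, either side of the threshold. Leaving out any 1 array ended the Hk1 call among genes, at adjusted p values of 0.0576 to 0.194. The dimmer 1420901_a_at gave 275 and 216 with Chd4 RNAi, against 251 and 275 in the controls. Those groups overlapped, with a log2 difference of -0.11 ± 0.18 and an adjusted p of 0.757 in limma.

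The difference between the hexokinases was tested directly, as the ratio of Hk2 to Hk1 within each array. This ratio was lower in both Chd4 RNAi arrays than in both controls, by -0.59 on the log2 scale (95% confidence interval -0.88 to -0.30). In limma it had an unadjusted p of 0.00418 and an adjusted p of 0.349 over 10497 ratios of probe sets or isozymes. None of the 10497 ratios passed after adjustment in limma (0% called), and 1145 (10.9%) had an unadjusted p under 0.05.

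Promoter sequences of Hk2, Pfkp and Ldha are shown because Hk2 was the gene called lower, Pfkp had the largest rise of the 8 and Ldha was the gene of the lower pathway that was called. Each is the 250 bases before a RefSeq start in GRCm38.p6, 5′ to 3′ on the gene's strand. Ldha has 2 such starts, of which 1 is shown. Capitals mark ACGTG, a form of the core of the site bound by hypoxia-inducible factors, and GGGCGG, the GC box bound by Sp-family factors. Both are marked on either strand (CACGT and CCGCCC are their reverse complements). The form GCGTG was not searched, so a window without ACGTG may still hold that core.
Hk2, chr6:82774455-82774704, minus strand: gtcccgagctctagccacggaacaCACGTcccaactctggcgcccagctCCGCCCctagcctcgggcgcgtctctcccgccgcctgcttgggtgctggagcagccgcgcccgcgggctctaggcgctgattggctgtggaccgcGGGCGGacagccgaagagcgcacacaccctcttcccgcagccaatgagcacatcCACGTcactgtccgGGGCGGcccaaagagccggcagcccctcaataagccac
Pfkp, chr13:6648772-6649021, minus strand: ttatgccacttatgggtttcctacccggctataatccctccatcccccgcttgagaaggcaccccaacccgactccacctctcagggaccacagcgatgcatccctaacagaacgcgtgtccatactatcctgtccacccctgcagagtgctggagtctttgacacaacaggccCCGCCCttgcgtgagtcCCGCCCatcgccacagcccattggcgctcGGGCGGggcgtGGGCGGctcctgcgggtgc
Ldha, chr7:46845554-46845803, plus strand: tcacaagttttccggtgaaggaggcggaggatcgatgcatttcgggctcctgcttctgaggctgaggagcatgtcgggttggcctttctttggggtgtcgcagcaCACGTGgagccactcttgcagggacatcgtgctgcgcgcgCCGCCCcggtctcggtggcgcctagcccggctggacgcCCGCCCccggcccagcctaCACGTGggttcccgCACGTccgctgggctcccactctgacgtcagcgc
The Hk2 promoter held 2 matches of ACGTG and 3 GC boxes. That of Pfkp held 0 and 4. The Ldha window shown held 5 matches of ACGTG, of which 4 come from 2 copies of CACGTG that read the same on both strands, and 2 GC boxes. The window of the other Ldha start, chr7:46846832-46847081, held 0 of each. RefSeq gave 16 start sites for the 10 genes. ACGTG was present in 6 of the 16 windows, those of Hk2, Aldoa, Pgk1, Pgam1 and Ldha, against 16.6% of 32851 mouse promoter windows of the same length. GGGCGG was present in 9 of 16 against 32.7%, CACGTG in 1 of 16 against 6.02% and TATAAA in 0 of 16 against 12.4%. By gene GGGCGG was present in 7 of 10, since overlapping windows of Aldoa and Eno1 also shared it. A match is a run of letters and not a binding site. Hk2, called lower, and the window shown of Ldha, called higher, both held ACGTG.

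Phosphofructokinase showed the clearest change. Pfkp gave 12197 and 11466 at 1416069_at in the Chd4 RNAi arrays, against 8536 and 8920.4 in the controls. Probe set 1430634_a_at gave 3696 and 3378 with Chd4 RNAi, against 2256 and 1999 in the controls. At both, each Chd4 RNAi array was above each control. The log2 differences were 0.44 ± 0.054 and 0.73 ± 0.079 (SE, n = 2 each), with adjusted p values of 0.000351 and 0.000159 in limma. These exceeded 98.2% and 99.2% of the differences of probe sets of similar brightness. The remaining Pfkp probe set, 1437759_at, did not move with them. Its signal was 1432 and 1353 with Chd4 RNAi, against 1441 and 1420.3 in the controls, with overlapping groups and a log2 difference of -0.039 (95% confidence interval -0.22 to 0.14). Set against 1416069_at within each array, 1437759_at was lower by -0.48 on the log2 scale (unadjusted p of 0.0369, adjusted p of 0.431 in limma). The annotation does not say which transcript each probe set reads, and no probe sequences were used here.

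Pfkl, the liver-type phosphofructokinase, did not pass at any of its 3 probe sets. The brightest, 1439148_a_at, gave 2360 and 2184 in the Chd4 RNAi arrays, against 2167 and 2010.3 in the controls. These did not overlap, but the lower Chd4 RNAi array and the higher control were nearly equal, and the log2 difference was 0.12 (95% confidence interval -0.047 to 0.29). The 2 dimmer probe sets, 1450269_a_at and 1453541_at, had differences of 0.028 and -0.15 on the log2 scale, and their groups overlapped. As a ratio within each array, Pfkp over Pfkl was higher in both Chd4 RNAi arrays than in both controls, by 0.32 ± 0.097 on the log2 scale (unadjusted p of 0.0271, adjusted p of 0.413 in limma). Pfkm over Pfkl, the muscle form over the liver form, differed by -0.057 (95% confidence interval -0.41 to 0.30).

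**Figure D2:**
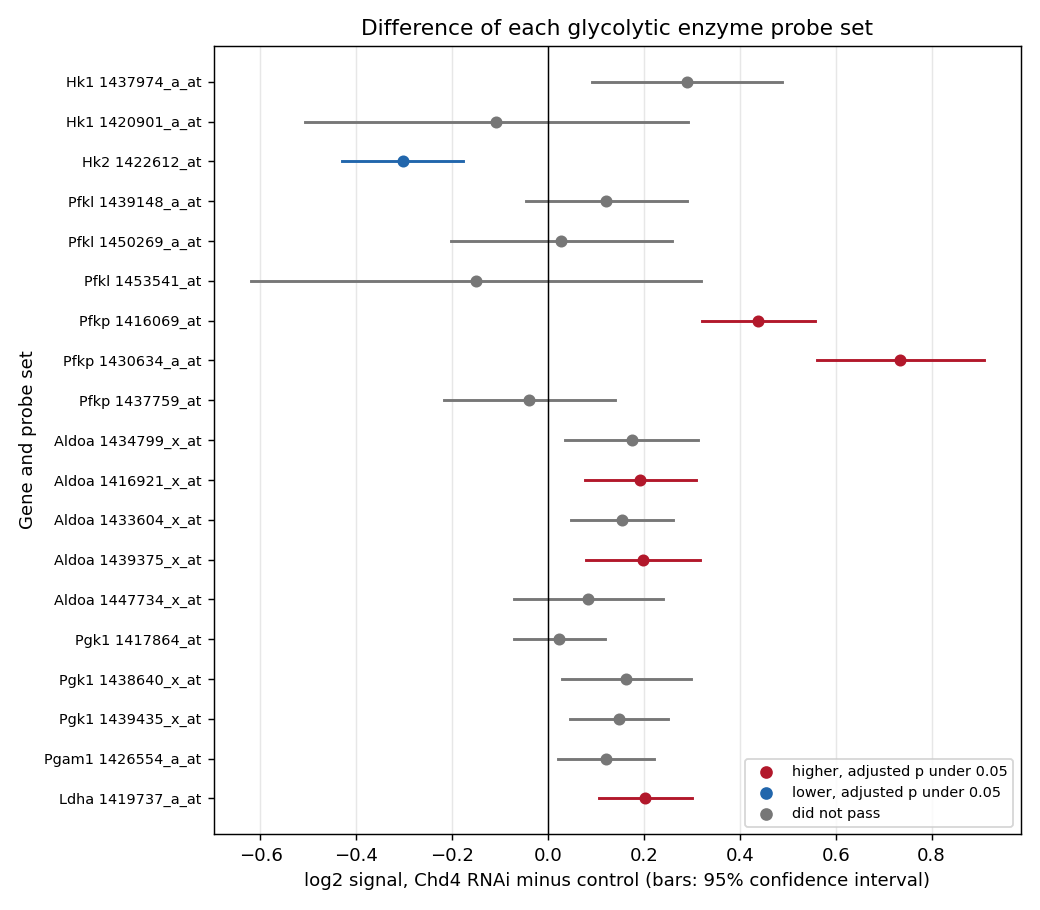
Log2 difference, Chd4 RNAi minus control, of each of the 19 probe sets with its 95% confidence interval from limma (n = 2 arrays each). Red points were called higher (5), the blue point lower (Hk2) and grey points did not pass, and intervals are wide for the dim probe sets of Hk1 and Pfkl.

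Aldoa, the aldolase that cleaves fructose 1,6-bisphosphate, was the member with most probe sets, and all 5 had a positive difference. The brightest, 1434799_x_at, gave 23616 and 21417 in the Chd4 RNAi arrays, against 18777 and 21150.1 in the controls. Its groups were separated by a narrow margin, and the log2 difference of 0.17 ± 0.063 (SE, n = 2 each) had an adjusted p of 0.0721 among genes in limma. Probe sets 1416921_x_at and 1439375_x_at passed, with log2 differences of 0.19 and 0.20 and adjusted p values of 0.0330 and 0.0328 in limma. At 1433604_x_at the difference was 0.15 and at 1447734_x_at 0.084, with adjusted p values of 0.0545 and 0.489 in limma. The 5 thus spanned 0.084 to 0.20, and 0 of the 4 ratios to the brightest passed even at an unadjusted p under 0.05 in limma (lowest 0.608). All 5 carry the suffix _x_at, which the maker gives to probe sets that can cross-hybridise, and they may share transcripts, so they are not independent measurements. The calls at 1416921_x_at and 1439375_x_at ended when control replicate 1 was left out, with log2 differences of 0.14 at both and adjusted p values of 0.228 and 0.239 in limma. The call at 1416921_x_at also ended without Chd4 RNAi replicate 2 (0.126) and that at 1439375_x_at without Chd4 RNAi replicate 1 (0.114). The brightest probe set instead passed without control replicate 2 or Chd4 RNAi replicate 2, with log2 differences of 0.26 and 0.24 among genes.

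Pgk1, the phosphoglycerate kinase that makes the first ATP of the lower pathway, had 3 positive differences, none of which passed. The brightest, 1417864_at, gave 22003 and 21353 in the Chd4 RNAi arrays, against 21421 and 21233 in the controls. These overlapped, at 102% of control (95% confidence interval 95.2% to 109%). The other 2, 1438640_x_at and 1439435_x_at, were higher in both Chd4 RNAi arrays than in both controls, by 0.16 and 0.15 on the log2 scale, with adjusted p values of 0.104 and 0.0552 in limma. Unlike 1417864_at, these 2 carry the suffix _x_at of probe sets that can cross-hybridise. They passed when an array was left out, 1438640_x_at at 0.26 without Chd4 RNAi replicate 1 (adjusted p of 0.00632) and 1439435_x_at at 0.18 without Chd4 RNAi replicate 2 (0.0387). Under quantile normalization of the arrays 1417864_at turned negative, at -0.076 on the log2 scale, and under cyclic loess normalization, at -0.020. Pgam1, a phosphoglycerate mutase, gave 16597 and 16256 in the Chd4 RNAi arrays, against 14975 and 15241 in the controls. The groups did not overlap, and the log2 difference of 0.12 ± 0.044 (SE, n = 2 each) had an adjusted p of 0.0774 among genes in limma.

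Ldha gave 23401 and 23817 in the Chd4 RNAi arrays, against 20089 and 20940.2 in the controls. Both Chd4 RNAi arrays were above both controls, and the gap between groups was wider than the gap within either pair. The log2 difference was 0.20 ± 0.043 (SE, n = 2 each), with an adjusted p of 0.00732 among genes in limma. Without control replicate 1 it was 0.17 with an adjusted p of 0.0513, and under quantile normalization 0.091 with 0.115. Ldhb, the subunit typical of oxidative tissues, gave 8225 and 8771 with Chd4 RNAi, against 8054 and 8329 in the controls, which overlapped. The ratio of Ldhb to Ldha differed by -0.15 on the log2 scale (95% confidence interval -0.50 to 0.20).

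The small positive differences of the lower enzymes lay among the brightest signals on the arrays, where most probe sets were higher with Chd4 RNAi. Of the 451 probe sets in the top 1% by signal, 82.0% had a positive difference and 23.9% were called higher, against 7.46% of all probe sets tested, and their median log2 difference was 0.098. This band held 9 of the 19 glycolytic enzyme probe sets: 4 of Aldoa, 3 of Pgk1, and those of Pgam1 and Ldha. All 9 were positive, 8 had both Chd4 RNAi arrays above both controls (as had 63.0% of the 451), 3 were called higher, and their median was 0.16. Ldha exceeded 90.7% of the band, 4 Aldoa probe sets 73.8% to 89.6%, and Pgam1 59.0%. Pgk1 ranged from 24.8% to 77.4%. The highest signal on an array was 37056 and 34469 with Chd4 RNAi, against 32212 and 32810 in the controls. Quantile normalization, which gives each array the same distribution, brought the median of the 451 to 0.0044 and that of the 19 to 0.087. With cyclic loess normalization these were 0.058 and 0.12.

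**Figure D3:**
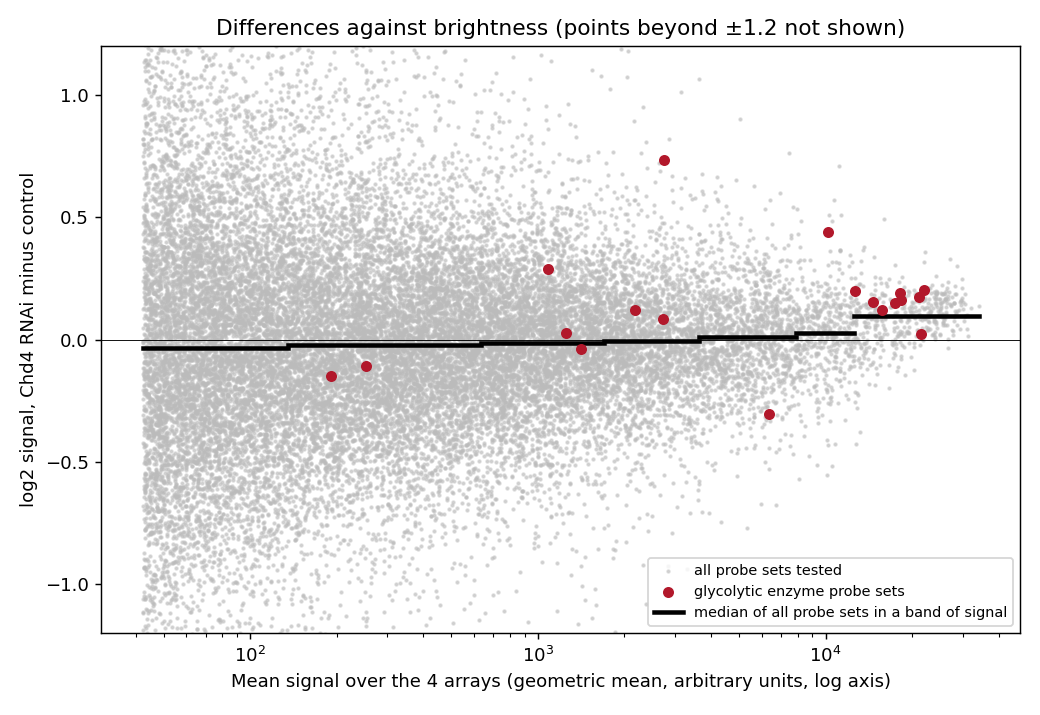
Log2 difference, Chd4 RNAi minus control, of every probe set tested against its mean signal (log axis), with the 19 glycolytic enzyme probe sets in red and the median of each band of signal as a black line. The line lies near 0 until the top 1% of signal, where it reaches 0.098 and where 9 of the red points lie.

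Gapdh, the dehydrogenase between aldolase and Pgk1, was read by the array's control probe sets, which were outside the test. Its log2 differences at the 3′, middle and 5′ probe sets were 0.14, 0.12 and 0.15, and both Chd4 RNAi arrays were above both controls at each. The control probe sets of beta-actin, which has no part in the pathway, gave 0.19, 0.20 and 0.20 with the same order of arrays. The 2 called Pfkp probe sets and Hk2 passed under quantile, cyclic loess and median-centred scaling alike, with log2 differences of 0.41 to 0.43, 0.73 to 0.74 and -0.32 to -0.31.

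**Figure D4:**
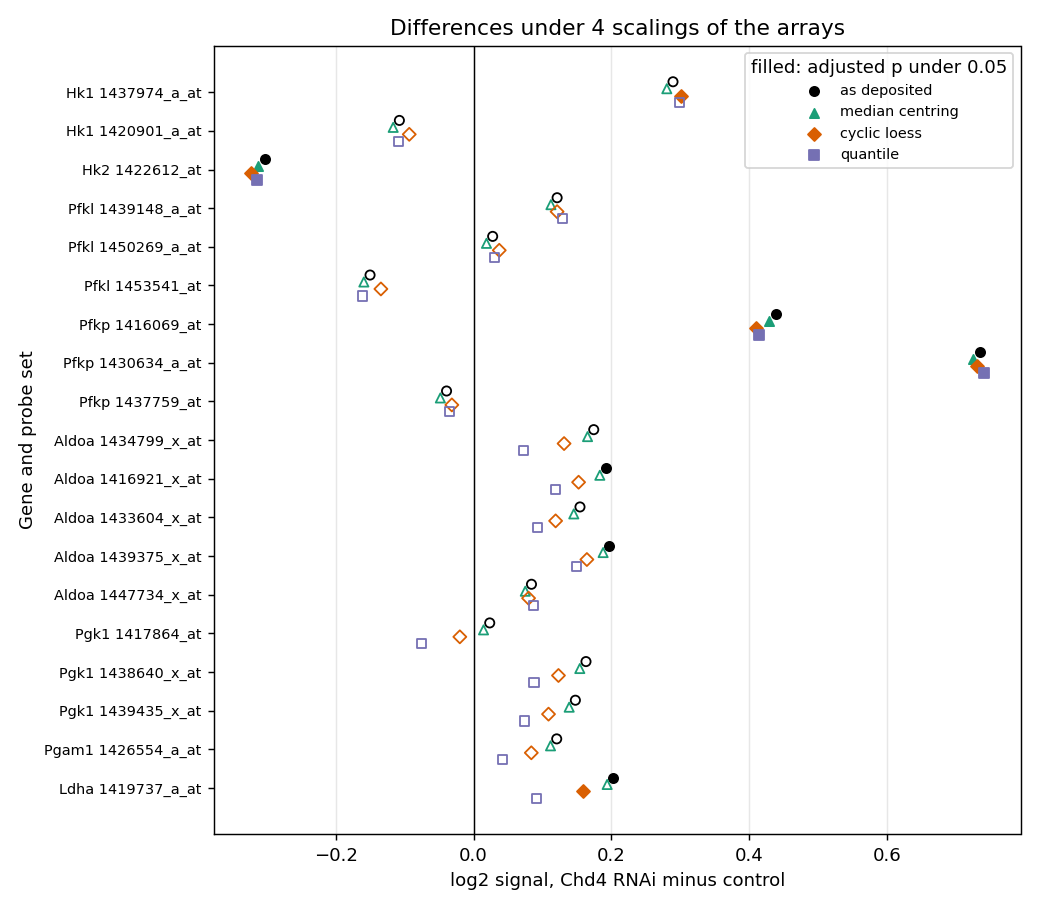
Log2 difference, Chd4 RNAi minus control, of the 19 probe sets under 4 scalings of the arrays, filled where adjusted p was under 0.05. Points of Pfkp 1416069_at, Pfkp 1430634_a_at and Hk2 are filled under all 4, whereas Ldha is filled under 2, Hk1 1437974_a_at under cyclic loess alone and 2 Aldoa probe sets only for the values as deposited.

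Around these enzymes, 10 lists of glycolytic isozymes, side branches and regulators held 107 entries, of which 90 were tested. In limma's gene fit 23 of the 90 passed, 10 as higher and 13 as lower, against 20.5% of all genes tested (11.7% higher and 8.81% lower). Those shares are the background of each list count given here. The median log2 difference of the 90 was -0.0079, against 0.014 for all genes tested. Among 13 further glycolytic enzymes and isozymes 1 was called higher and 0 lower, with a median of 0.15. That gene was Ldhc, the lactate dehydrogenase subunit of testis, with 269.7 and 236 in the Chd4 RNAi arrays, against 51.5 and 97.5 in the controls. It was at least 3.01-fold higher, with control signals under the median raised to the median of 71.8 (adjusted p of 0.00194 in limma). Triose phosphate isomerase, Tpi1, was lower in both Chd4 RNAi arrays, at 11985 and 12161 against 12825 and 13206 in the controls, but its log2 difference of -0.11 did not pass (adjusted p of 0.125 in limma). Pyruvate kinase, Pkm, had a log2 difference of 0.10 (adjusted p of 0.145 in limma). Tpi1 passed under quantile and cyclic loess normalization, with adjusted p values of 0.0225 and 0.0399. Pklr, another pyruvate kinase gene, was not called by its brightest probe set (log2 difference of 0.23). Its probe set 1421259_at, picked out after values were seen, was called lower in the probe-set fit. The signal there was 17.7 and 17.7 with Chd4 RNAi, under the median of 71.8, against 138 and 108 in the controls. The log2 difference was -2.79 (adjusted p of 0.00223 in limma), whereas 1438711_at gave -0.26 and did not pass.

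At the entry, Slc2a1, the glucose transporter GLUT1, fell by 0.18 on the log2 scale, as 1 of 6 tested transporters of glucose and lactate to pass. All 3 of its probe sets were called lower. Its signal was 13415 and 13090 in the Chd4 RNAi arrays, against 14384 and 15718 in the controls, and its adjusted p of 0.0312 in limma became 0.231 without control replicate 2 and 0.0998 without Chd4 RNAi replicate 2. Of 4 regulators of phosphofructokinase, bifunctional enzymes that set the level of its activator fructose 2,6-bisphosphate among them, Pfkfb2 rose by 0.55 and Pfkfb3 fell by 0.63 (log2). Their further tested probe sets, dimmer still, did not pass. Those differences were 0.20 and -1.05 for Pfkfb2 and 0.20 for Pfkfb3. In the probe-set fit Pfkfb3 1416432_at had an adjusted p of 0.0619 in limma. In the gene fit, by the brightest probe set, both genes are dim. Pfkfb2 had 385 and 315 with Chd4 RNAi against 242 and 234 in the controls. Pfkfb3 had 162 and 197 with Chd4 RNAi against 241 and 321 in the controls. Their adjusted p values in limma were 0.0358 and 0.0481, and became 0.212 and 0.176 without Chd4 RNAi replicate 1. Without control replicate 2 they were 0.114 and 0.317, and Pfkfb2 without control replicate 1 had 0.0814.

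The side branches held changes in both directions. Of 9 genes of glycogen metabolism and hexose entry, 1 rose and 3 fell: the brain-type glycogen phosphorylase Pygb rose by 0.58, and glycogen synthase Gys1, galactose mutarotase Galm and phosphomannose isomerase Mpi fell by 0.61, 0.61 and 0.39 (log2). Of 7 genes of the pentose phosphate pathway, the epimerase Rpe and the dehydrogenase Pgd were called higher, by 0.25 and 0.18, and the lactonase Pgls lower, by -0.27. Rpe became 0.044 (adjusted p of 0.809 in limma) when its 3 probe sets were averaged, and its probe set 1416705_at had a difference of -0.0086. Pgd reversed to -0.029 when cross-hybridising probe sets were left out. Of 3 genes of the glycerol phosphate branch, 1 passed: Gpd2, the mitochondrial glycerol phosphate dehydrogenase, was higher by 0.40. Among 4 gluconeogenic genes, pyruvate carboxylase, Pcx, was higher by 0.52 and the others did not pass. Leaving out control replicate 1 ended the calls of Gys1, Mpi, Rpe, Pgd, Gpd2 and Pcx (adjusted p of 0.156, 0.0983, 0.0561, 0.114, 0.0541 and 0.0629 in limma). Those of Pgls (0.111) and Pgd (0.152) ended without control replicate 2, those of Pgls (0.0873) and Pgd (0.123) without Chd4 RNAi replicate 1, and those of Pcx (0.0603) and Pgd (0.0822) without Chd4 RNAi replicate 2.

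Where pyruvate enters the mitochondrion, Mpc1, a subunit of the mitochondrial pyruvate carrier, gave 2164 and 2071 in the Chd4 RNAi arrays, against 1221 and 1269 in the controls. It was 170% of control (95% confidence interval 152% to 191%, adjusted p of 5.66e-05 in limma). Pdha1, a catalytic subunit of pyruvate dehydrogenase, gave 4729 and 4916 with Chd4 RNAi, against 6297 and 6384 in the controls, or 76.0% of control (adjusted p of 0.000562 in limma). These were the 2 of 12 tested genes of this list to pass in the gene fit. The probe sets of the kinase Pdk1, picked out after values were seen, disagreed. Its brightest, 1423747_a_at, gave a log2 difference of -0.0020. In the probe-set fit 1423748_at was called higher, by 0.23 (adjusted p of 0.0224 in limma), and 1435836_at gave -0.22 (0.0756). In the citric acid cycle list 5 of 17 tested genes fell and 1 rose (8.81% and 11.7% of all genes tested), with a median log2 difference of -0.15. Mdh1, the cytosolic malate dehydrogenase, fell by 0.41, the succinate dehydrogenase subunits Sdhc and Sdhb by 0.26 and 0.25, and the subunits of isocitrate dehydrogenase and succinyl-CoA ligase, Idh3a and Suclg1, by 0.17 each. Sdha, the flavoprotein subunit of succinate dehydrogenase, rose by 0.28 (log2). The Suclg1 call ended without any 1 of the arrays (adjusted p of 0.0941 to 0.189 in limma) and that of Idh3a without control replicate 2 (0.243), Chd4 RNAi replicate 1 (0.0783) or Chd4 RNAi replicate 2 (0.106). Without control replicate 1 Sdha had 0.0664. Averaging all probe sets of a gene, dim ones included, reversed Sdhc to 0.089 and Sdha to -0.45.

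**Figure D5:**
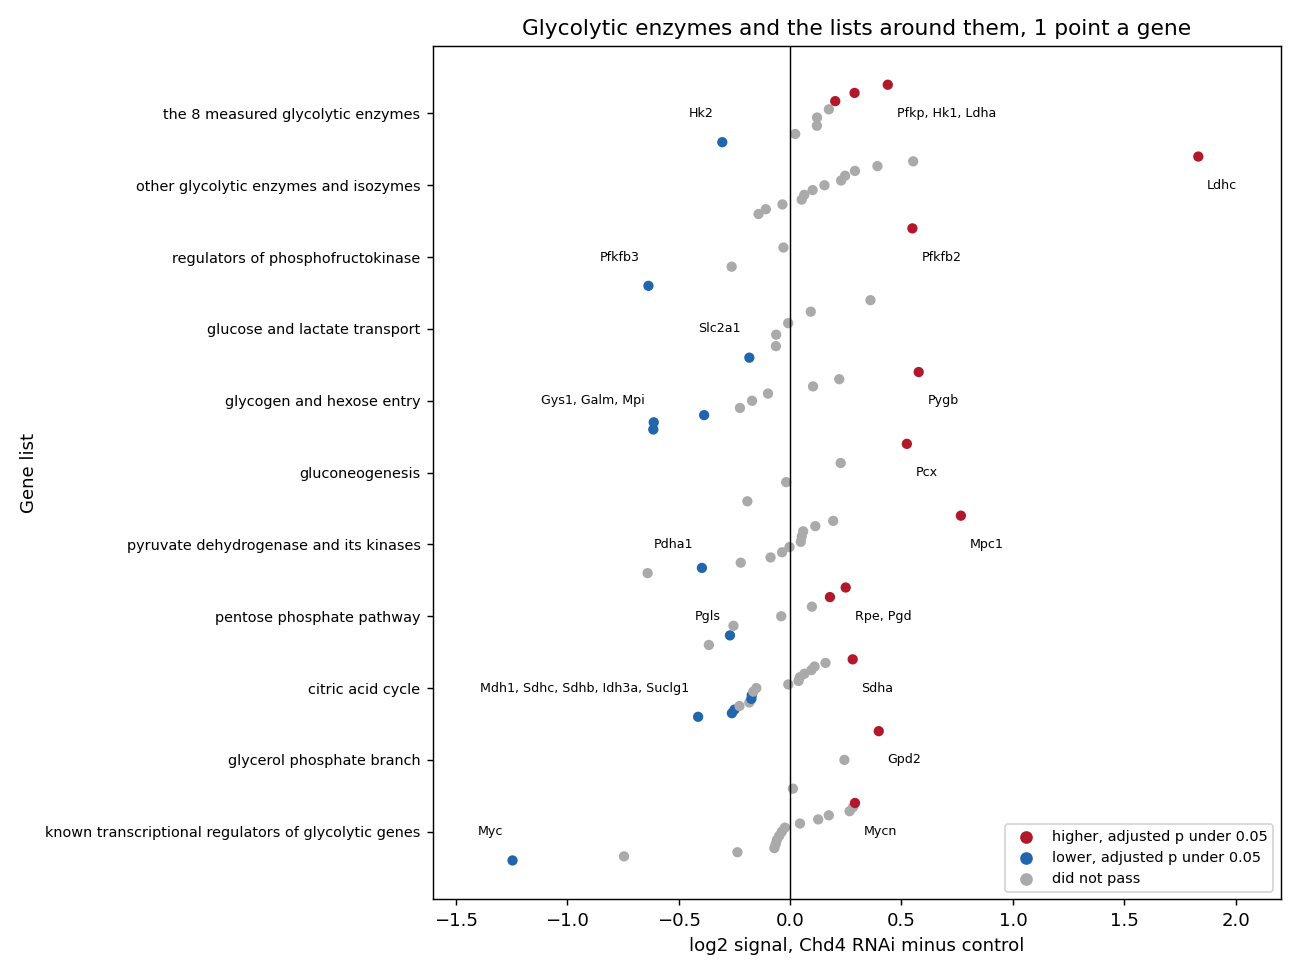
Log2 difference, Chd4 RNAi minus control, of the 8 glycolytic enzymes and of the tested genes of 10 related lists, with 1 point a gene. Red points were called higher and blue points lower in limma's gene fit, with their names in the row, and Ldhc lies farthest right and Myc farthest left.

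Among 15 tested transcription factors and related proteins known to act on glycolytic genes, 1 rose and 1 fell. Myc gave 473 and 510.3 in the Chd4 RNAi arrays, against 1242 and 1090.4 in the controls, or 42.2% of control (95% confidence interval 35.9% to 49.7%, adjusted p of 2.41e-05 in limma). Mycn gave 9024 and 9074 with Chd4 RNAi, against 7334 and 7453 in the controls, or 122% of control (adjusted p of 0.00198 in limma). Hif1a had a log2 difference of 0.13 and did not pass (adjusted p of 0.153 in limma).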

How the data were processed

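Total RNA of 4 samples was labelled as biotinylated cRNA from 6 ug and hybridised to 1 array each, per the labels' protocols. The authors deposited intensity values on a linear scale, for which the submitters' processing notes name MAS5 (version, scaling target and detection calls not given in the sources used here). Only 4 arrays were analysed, which limits the precision. The p-values set a difference against a spread between these samples. For probe sets and genes it is estimated mostly from other probe sets (prior df 9.24 and 9.12 against residual df 2). For the ratios the prior df was only 2.39, so their spread rests about as much on the 4 arrays' own values. A ratio that did not pass is therefore not shown to be unchanged. The platform annotation gave 34945 of 45037 non-control probe sets a single gene symbol, and only these entered the gene fit. The log2 of the deposited intensity, without pseudocount, was tested with limma 3.58.1 under R 4.3.3, two-sided, letting the prior variance follow the intensity (residual df 2, prior df 9.24), for the 60% brightest probe sets (signal of 42.4 or more). A gene was its brightest probe set. Ratios were tested as log2 differences between probe sets within arrays. Signals at or under the median are noisy in MAS5, and the floor of the at-least fold was chosen after values were seen.

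The members and gene lists were chosen with earlier results of these data known. Named were all member probe sets, every list gene that passed (up to 6 a list, all of the glycolytic isozymes), Hif1a, Myc, Gapdh, Tpi1 and Pkm. Also, 1 further probe set shared by Hk1 and other genes was left out. Motifs were searched by exact letters on both strands. Replicate numbers were not taken as pairs in the main fit. The deviations of same-numbered arrays from their group means had a correlation of 0.018. The ratios of 3′ to 5′ control probe sets did follow the replicate number. For Gapdh they were 0.793 (Chd4 RNAi) and 0.798 (control) in replicate 1, and 0.812 and 0.820 in replicate 2. For beta-actin they were 1.23 and 1.24, and 1.28 and 1.30. Whether same-numbered arrays were prepared together was not tested. Alternatives changed the scaling of the arrays, the pseudocount, the filter, the variance model, the probe set of a gene, the block or the arrays used. Cyclic loess, median centring and all alternatives for list genes were added after the data were seen.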

Additional observations from a re-analysis of the deposited data

How the results depend on the processing

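Hk2 and the 2 called Pfkp probe sets passed under 12 of 13 alternatives, and failed only without the intensity trend (adjusted p of 0.210, 0.141 and 0.105 in limma). That model, which ignores brightness in the spread, called 0 of 27022 probe sets, 0 of 19 glycolytic enzyme probe sets, 0 of 8 genes, 0 of 3 Chd4 probe sets and 421 of 12615 genes, where 69.6% of calls were higher against 57.1%. At an unadjusted p under 0.05 in limma with the trend there were 7646 probe sets. Of the glycolytic enzyme probe sets, 3 were called under quantile normalization and 3 under median centring, or 15.8% against 13.7% and 11.5% of all probe sets under these scalings, and 6 as deposited, or 31.6% against 14.2% of all, and 2 of the 8 genes were called under median centring (17.6% of all genes), against 4 as deposited. Leaving out each array in turn gave 3 to 7 probe sets, 2 to 4 genes, 2497 to 3584 of all probe sets and 1808 to 2079 of all genes. The lowest member counts came without control replicate 1 (3 probe sets, 2 genes) and the lowest total without control replicate 2. Averaging the probe sets of a gene called 1380 genes, against 2592. Keeping the top 40% of probe sets called 1 ratio, a pair of Pde4dip probe sets (named after its values were seen), against 0. Ldha passed under 9 of 13 alternatives, Aldoa 1416921_x_at under 6 and 1439375_x_at under 5, and the Hk1 gene under 7 of 15. With the replicate block, 5 glycolytic enzyme probe sets, 4 of the 8 genes, 3635 probe sets, 2260 genes, 0 ratios and 3 Chd4 probe sets were called, and Aldoa 1439375_x_at (adjusted p of 0.0548), Slc2a1 (0.0563), Pgd (0.0666), Idh3a (0.0661) and Suclg1 (0.0752) did not pass.

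Some directions turned. Leaving out each array in turn gave -0.28 to 0.066 for Hk1 1420901_a_at (positive without Chd4 RNAi replicate 2), -0.12 to 0.18 for Pfkl 1450269_a_at (negative without control replicate 2 and, at -0.015, without Chd4 RNAi replicate 1), -0.37 to 0.068 for Pfkl 1453541_at (positive without control replicate 2) and -0.080 to 0.0018 for Pfkp 1437759_at (positive without Chd4 RNAi replicate 2). Pgk1 1417864_at, as probe set and gene, became -0.076 under quantile and -0.020 under cyclic loess normalization. Averaged over probe sets, Pfkl became -0.00046, Sdhc 0.089 and Sdha -0.45, and Pgd was -0.029 without cross-hybridising probe sets. The cause was not tested. Aldoa, with only _x_at probe sets, gave no value there. Depth is unknown for arrays, and the dim probe sets of Hk1 and Pfkl had the widest intervals.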

Other observations

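Slc2a3, the glucose transporter GLUT3, was not called by its brightest probe set, 1437052_s_at, where the log2 difference was -0.0082 (adjusted p of 0.936 in limma's probe-set fit). Its other 3 probe sets, picked out after their values were seen, were lower in both Chd4 RNAi arrays than in both controls. The log2 differences were -0.17 at 1455898_x_at, -0.52 at 1421924_at and -0.63 at 1427770_a_at, with adjusted p values of 0.0348, 0.000383 and 0.00639 in limma. The signal of 1421924_at was 2647 and 2744 with Chd4 RNAi, against 3918 and 3794 in the controls. Sdhc, an anchor subunit of succinate dehydrogenase, was called in opposite directions by its 2 probe sets, lower by -0.26 at 1448630_a_at and higher by 0.44 at 1435986_x_at (adjusted p of 0.0137 and 0.0252 in limma).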
